A study of Mus musculus with 6 samples.

Results

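Imprinted genes were followed in RNA from mouse melanomas, namely the long noncoding RNAs Kcnq1ot1, Airn, Nespas, H19, Meg3, Rian and Mirg and the coding genes Igf2, Plagl1 and Peg3. These 10 were matched by their GENCODE symbols out of the 53801 genes counted in every tumour. All tumours grew under the skin of adult male wild type C57BL/6 mice after injection of B16-F10 cells, a mouse melanoma line. The SEVO tumours (n = 3) came from cells that had been primed with sevoflurane, an inhaled anaesthetic, in a gas chamber before injection, and the CTRL tumours (n = 3) came from cells without priming, and the mice received no anaesthetic themselves. A newly thawed stock of the line was used for each experimental group, so stock and priming cannot be told apart, and the RNA came from small pieces of whole tumour. The labels name monocytes as the cell type, but the source is tumour and all 10 melanocyte markers checked, among them Dct, Tyr and Pmel, were above background in every tumour.

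Imprinted genes are transcribed mainly from the copy inherited from one parent, according to DNA methylation set down in the germ line at control regions of each cluster. Several clusters are controlled through a long RNA transcribed against a coding neighbour: Kcnq1ot1 runs against Kcnq1, Airn against Igf2r and Nespas against Gnas, and Kcnq1ot1 and Airn silence genes in cis on the paternal chromosome. The clusters hold many regulators of fetal growth, many of which are turned down after birth, and counts summed over both parental copies, as here, cannot show which copy was transcribed.

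The strand of a read decides which of these RNAs it is counted for, and at several of these loci the reads were densest on short annotated RNAs opposite the imprinted gene. The sequences below are therefore shown for features that carried these counts, as GENCODE M21 transcripts on GRCm38, in lower case throughout because no part of them was singled out. Gm27539 lies at chr7:143293932-143294155 on the plus strand, Gm27389 at chr7:143273053-143273247 and Gm27803 at chr7:143273566-143273684, also on the plus strand, and all lie inside the single exon of Kcnq1ot1, which is on the minus strand.
Gm27539: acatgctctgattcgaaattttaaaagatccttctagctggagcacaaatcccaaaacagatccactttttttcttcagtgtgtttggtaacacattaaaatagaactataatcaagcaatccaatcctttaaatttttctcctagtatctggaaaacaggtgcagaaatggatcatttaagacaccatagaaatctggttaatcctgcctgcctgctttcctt
Gm27389: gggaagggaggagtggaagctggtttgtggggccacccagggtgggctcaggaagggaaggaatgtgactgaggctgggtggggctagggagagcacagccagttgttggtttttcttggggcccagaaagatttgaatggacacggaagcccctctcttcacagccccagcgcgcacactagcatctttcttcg
Gm27803: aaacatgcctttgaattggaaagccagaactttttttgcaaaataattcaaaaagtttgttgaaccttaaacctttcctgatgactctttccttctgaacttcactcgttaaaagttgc
The reverse complement of each of these 3, and of the longer Gm27395 (460 bases, chr7:143251367-143251826), was found in the transcript of Kcnq1ot1, starting 2395 bases from its 5′ end for Gm27539, 22866 for Gm27803, 23303 for Gm27389 and 44724 for Gm27395.

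The libraries were shallow over genes. Between 723431 and 1348676 reads per tumour fell on genes, or 2.06% to 4.61% of the uniquely aligned reads, and 197 to 511 of these fell on the 10 imprinted genes. The predicted genes Gm10800 and Gm10801 took 1.31% to 49.0% of the counted reads, both extremes being CTRL tumours. Stray reads were measured on 1460 olfactory and vomeronasal receptor genes, which should be silent in melanoma, as reads per kb of merged exon. Pooled over these genes the density was 1.30, 0.0755 and 0.588 reads per kb in CTRL tumours 1, 2 and 3 and 0.184, 0.210 and 0.396 in SEVO tumours 1, 2 and 3. CTRL tumours 1 and 2 thus differed 17.2-fold in this background, and all SEVO tumours lay between them.

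A gene was taken as above background in a tumour when its density exceeded the 95th percentile of the receptor genes there and it had more than 3 reads. By this rule 1 of the 10 genes, Plagl1, was above background in every tumour, while 15% of all 21967 protein-coding genes were. Against a second list of 98 silent genes 0 of the 10 were, since the 95th percentile of that list lay above Plagl1 in CTRL tumours 1 and 3, at 6.73 and 7.55 reads per kb. Plagl1 encodes a zinc finger transcription factor that restrains the cell cycle and is transcribed from the paternal copy. It had 44, 32 and 35 reads in CTRL tumours 1, 2 and 3, and 35, 56 and 51 in SEVO tumours 1, 2 and 3, over 7819 exon bases. These are 4.09 to 7.16 reads per kb, 4.35 to 54.2 times the pooled receptor density of the same tumour.

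Kcnq1ot1, the RNA of the Kcnq1 cluster, held the most reads and has the most exon bases, 93092 in 1 exon (ENSMUSG00000101609.2, chr7:143203458-143296549, minus strand). Its reads numbered 312, 145 and 253 in CTRL tumours 1, 2 and 3, followed by 344, 198 and 194 in SEVO tumours 1, 2 and 3, and all values below are in this order. Per kb these were 3.35, 1.56 and 2.72 against 3.70, 2.13 and 2.08. Its density was 2.59 to 20.6 times the pooled receptor density, and it was above background in 5 of 6 tumours. The exception was CTRL tumour 1, where 3.35 reads per kb lay below the 95th percentile of 3.57. Measured instead by the lower bound of an exact 95% Poisson interval against the pooled receptor density, a criterion added after the data had been seen, both Kcnq1ot1 and Plagl1 were above background in every tumour.

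The remaining 8 genes did not clear the background in every tumour. Airn, which silences Igf2r and its neighbours (chr17:12741311-12860136, plus strand, 3597 exon bases), had 8, 4 and 3 reads in CTRL tumours and 6, 6 and 13 in SEVO tumours and was above background in 4 of 6. Nespas, antisense to Gnas (chr2:174281237-174295436, minus strand), had 4, 3 and 3 reads in CTRL and 0, 7 and 0 in SEVO tumours and was above background in 1 of 6. The other 6 were above it in 0 of 6.

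H19 and Igf2 share an enhancer on chromosome 7 and are the classical pair of maternal noncoding RNA and paternal growth factor. H19 (chr7:142575529-142578143, minus strand, 2460 exon bases) had 5, 0 and 1 reads in CTRL and 3, 1 and 3 in SEVO tumours. Igf2 (chr7:142650766-142666816, minus strand) had 1, 0 and 1 reads in CTRL and 1, 0 and 3 in SEVO tumours. Even with no read on Igf2 in CTRL tumour 2, the exact 95% Poisson interval there reached 0.645 reads per kb. Of the 5723 exon bases of Igf2, 3596 are shared on the same strand with the coding gene Gm49394, which itself had 0 to 3 reads, so reads on that stretch may have been left uncounted as ambiguous.

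Meg3, Rian and Mirg are maternally transcribed noncoding RNAs of the Dlk1-Dio3 cluster on chromosome 12, and Rian and Mirg host small nucleolar RNAs and microRNAs. Meg3 (chr12:109541001-109571726, plus strand, 18089 exon bases) had 62, 4 and 34 reads in CTRL and 13, 8 and 17 in SEVO tumours. Rian (chr12:109603940-109661716) had 28, 3 and 11 against 5, 14 and 10, and Mirg (chr12:109729764-109749460) had 20, 3 and 9 against 0, 3 and 5. The 33 microRNA and small nucleolar RNA genes inside these 3 genes on the same strand had 10 reads in all tumours together, none with 10 or more. Peg3, a paternally expressed zinc finger gene (chr7:6703892-6730431, minus strand, 13324 exon bases), had 27, 3 and 8 reads in CTRL and 2, 2 and 6 in SEVO tumours.

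Meg3, Mirg and Peg3 had their 3 highest densities in the same tumours as the receptor genes and in the same order, CTRL tumour 1, CTRL tumour 3 and SEVO tumour 3. The median density of protein-coding genes was highest in the same 3 tumours, in the same order. That median ran from 0.262 reads per kb in CTRL tumour 2 to 2.56 in CTRL tumour 1. The order was thus not particular to Meg3, Mirg and Peg3. Meg3 had 3.43, 0.221 and 1.88 reads per kb in CTRL tumours 1, 2 and 3 and 0.719, 0.442 and 0.940 in SEVO tumours 1, 2 and 3, or 2.11 to 3.90 times the pooled receptor density. Peg3 was at 0.714 to 2.98 times that density Rian at 1.03 to 3.65 times and Mirg at 0 to 5.45 times. Rian was also highest in CTRL tumour 1, the tumour with the most stray reads, but next in SEVO tumour 2. Kcnq1ot1 and Plagl1 did not share this pattern, since Kcnq1ot1 was highest in SEVO tumour 1 and Plagl1 in SEVO tumour 2.

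**Figure D1:**
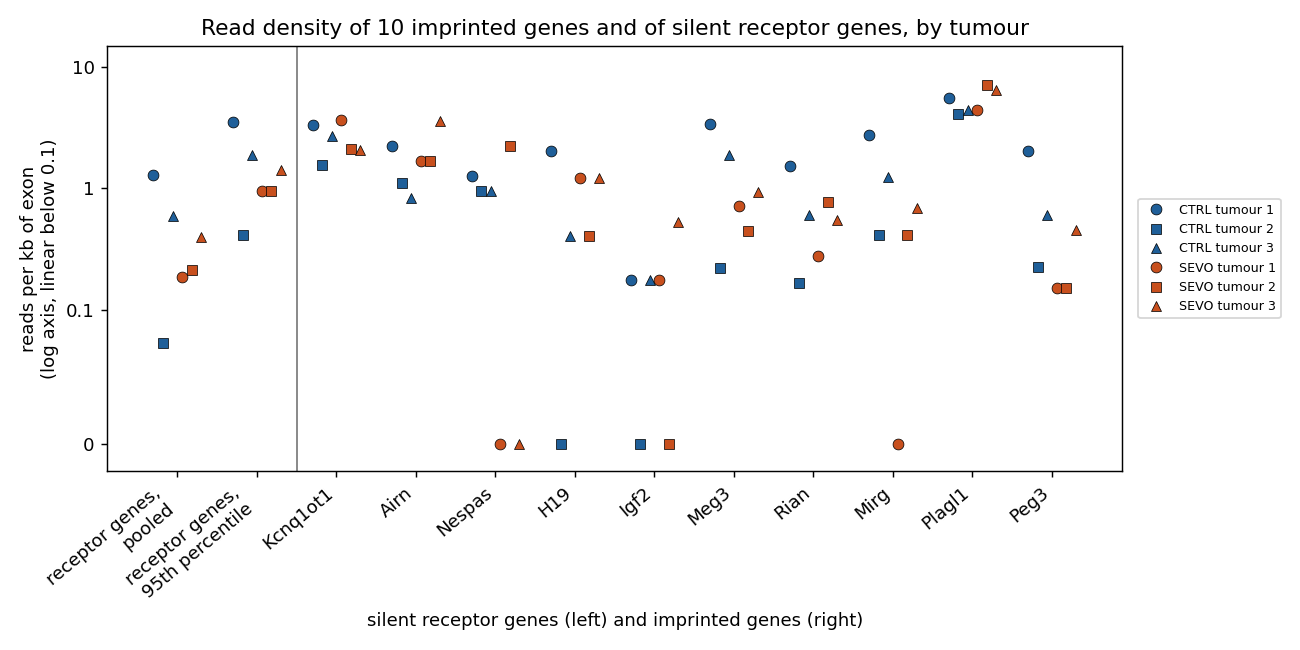
Reads per kb of exon in each of the 6 tumours (blue CTRL, orange SEVO, 1 symbol per tumour number) for the pooled receptor genes, for their 95th percentile and for the 10 imprinted genes, on a log axis that is linear below 0.1. Plagl1 sits between 4.09 and 7.16 reads per kb in every tumour, whereas Meg3 spreads from 0.221 to 3.43.

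**Figure D2:**
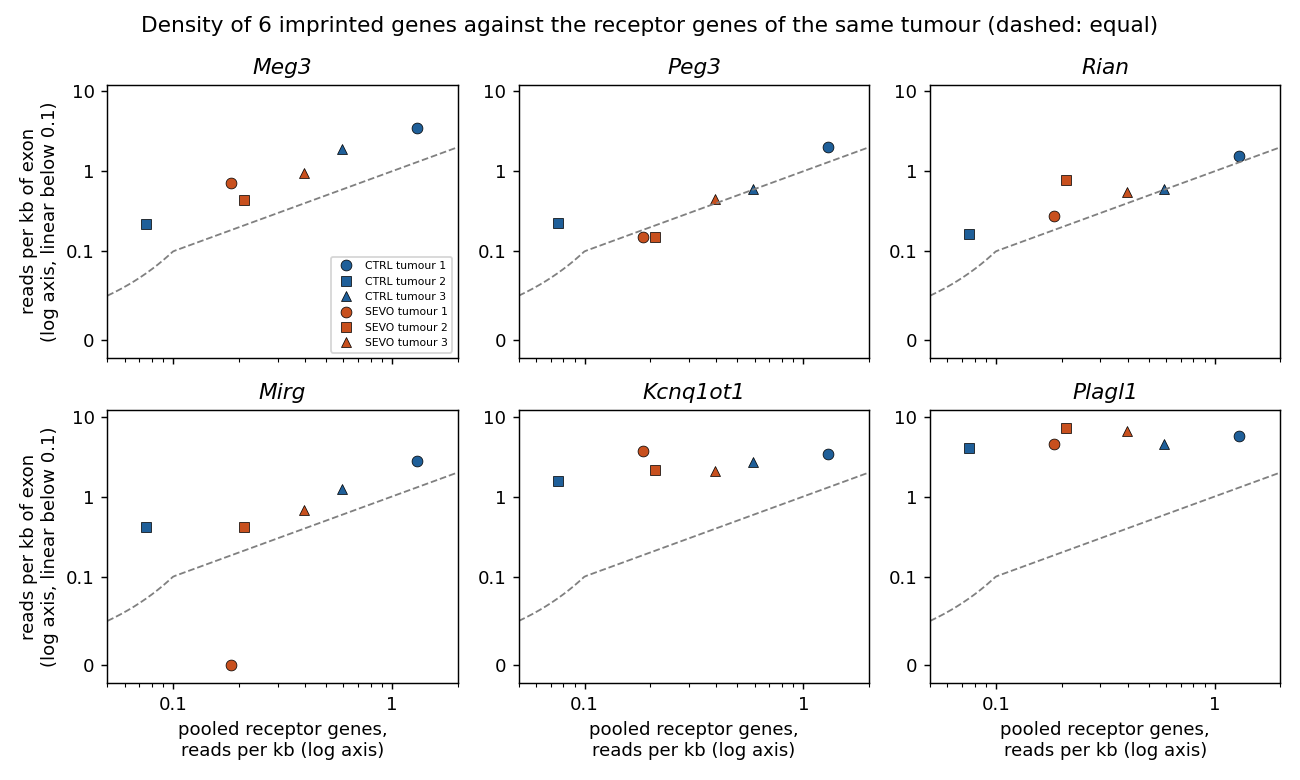
Reads per kb of 6 imprinted genes (vertical, log axis, linear below 0.1) against the pooled receptor genes of the same tumour (horizontal, log axis), 1 point per tumour, with a dashed line where both are equal. Meg3 and Peg3 climb with the receptor genes, and Plagl1 stays within 4.09 to 7.16 reads per kb over the 17.2-fold range of the background.

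By median density over the 6 tumours the order was Plagl1 (5.05 reads per kb), Kcnq1ot1 (2.42), Airn (1.67), Nespas (0.955), Meg3 (0.829), H19 (0.813), Rian (0.576), Mirg (0.549), Peg3 (0.338) and Igf2 (0.175). The lowest value of Plagl1, 4.09, lay above the highest of Kcnq1ot1, 3.70, and from Kcnq1ot1 downwards the ranges of neighbours in this order overlapped. The genes whose log2 CPM over the 6 tumours most resembled that of Kcnq1ot1 were Gm21057 and Cinp (each with a Pearson r of 0.969) and Jmjd4 (0.959), chosen among 7560 genes in libraries that all share the differences in background described above.

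The question of strand was asked locus by locus. Of the 10 genes, 6 have exon bases opposite an exon of another gene (8 have another gene on the opposite strand of the gene body). HTSeq leaves a read uncounted when it could belong to exons of 2 genes, so a read on a feature lying wholly inside an exon of another gene is counted only if the strands are kept apart. Such features carried reads in every tumour, and 3838 to 6114 reads per tumour were set aside as ambiguous, hence the counting was specific to a strand. Whether the setting matched the library kit is not given in the sources used here, and which strand of RNA a count stands for was not tested. The counts of a gene in this text are therefore reads assigned to its annotation, and need not be levels of its RNA.

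Inside Kcnq1ot1 the features on the opposite strand were far denser in reads than Kcnq1ot1 itself. Gm27539 had 32, 63 and 38 reads in CTRL and 75, 71 and 34 in SEVO tumours on 224 bases. Gm27389 had 25, 32 and 36 against 72, 49 and 47 on 195 bases. Gm27395 had 34, 59 and 39 against 75, 38 and 46, and Gm27803 had 5, 18 and 4 against 21, 8 and 9. Over the 998 bases of these 4 features together the density came to 96.2 to 243 reads per kb, which is 28.7 to 111 times that of Kcnq1ot1 in the same tumour, with a median of 65.6. Among 562 short RNA genes of the same class (misc_RNA), of which 64.1% had a read, they ranked at the 96.6th to the 99.3rd percentile by density.

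Plus strand features of the same host gene that lie outside Kcnq1ot1 gave a different picture. The 4 unspliced transcripts inside Kcnq1 but outside Kcnq1ot1, with 5616 bases, had 0 to 14 reads per tumour, or 0 to 2.49 reads per kb. The 3 minus strand features there had at most 3.83 reads per kb. Kcnq1, the potassium channel gene in which Kcnq1ot1 starts, had 28, 40 and 26 reads in CTRL and 42, 35 and 33 in SEVO tumours, or 6.35 to 10.3 reads per kb.

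**Figure D3:**
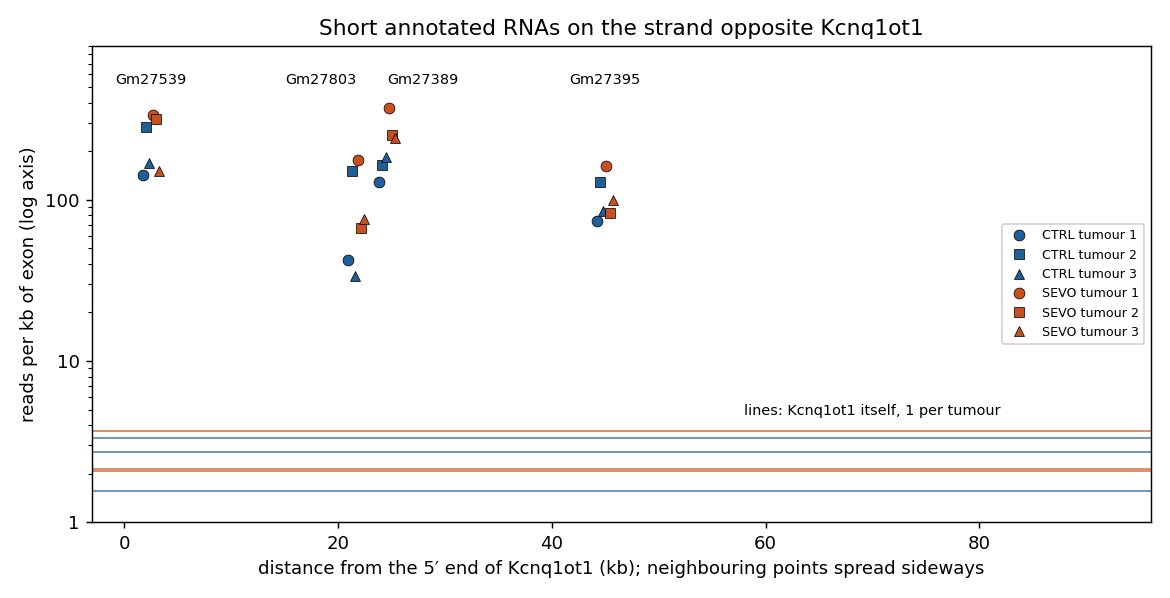
Reads per kb (vertical, log axis) of the 4 short RNAs on the strand opposite Kcnq1ot1, placed by their distance from its 5′ end in kb, with 1 point per tumour and 1 horizontal line per tumour for Kcnq1ot1 itself. The points lie between 33.6 and 369 reads per kb and the lines between 1.56 and 3.70.

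At Plagl1 the opposite strand was denser as well. Gm27741, a short RNA gene of 237 bases on its opposite strand, of which 38 lie opposite exons of Plagl1, had 31, 41 and 48 reads in CTRL and 85, 75 and 80 in SEVO tumours, or 131 to 359 reads per kb and 23.2 to 80.1 times the density of Plagl1. Inside an intron of Airn, the processed pseudogene Gm7162 on the opposite strand had 13, 19 and 19 reads in CTRL and 19, 31 and 24 in SEVO tumours, or 5.71 to 22.2 times the density of Airn. Gm16574, a pseudogene on the strand of Airn itself, had 0 to 3. Counts of both pseudogenes are uncertain, since reads from near-identical copies elsewhere cannot be told apart.

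At the Gnas locus the contrast was greatest. Gnas, the gene of the stimulatory G protein subunit, had 62, 46 and 63 reads in CTRL and 30, 50 and 65 in SEVO tumours. Gm20721, of whose 1484 bases 1469 lie opposite exons of Gnas, had 4674, 8414 and 7412 in CTRL and 8362, 11205 and 8816 in SEVO tumours, or 568 to 2101 times the density of Gnas. The 3 short features opposite Nespas had no read, and those opposite H19, Gm27786 and Gm27483, had 0 to 8 together, all but 1 of the 9 in SEVO tumour 3. Opposite Meg3, Gm26906 had 6, 11 and 3 reads in CTRL and 1, 0 and 5 in SEVO tumours. Opposite Igf2, Igf2os had 14, 1 and 5 against 4, 0 and 5.

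The same was counted beyond these loci. Of 354 noncoding genes with at least 90% of their bases opposite exons of a coding gene, 246 pairs had at least 60 reads, and in 210 of these (85.4%) the noncoding gene was the denser one. What set these densities was not tested.

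**Figure D4:**
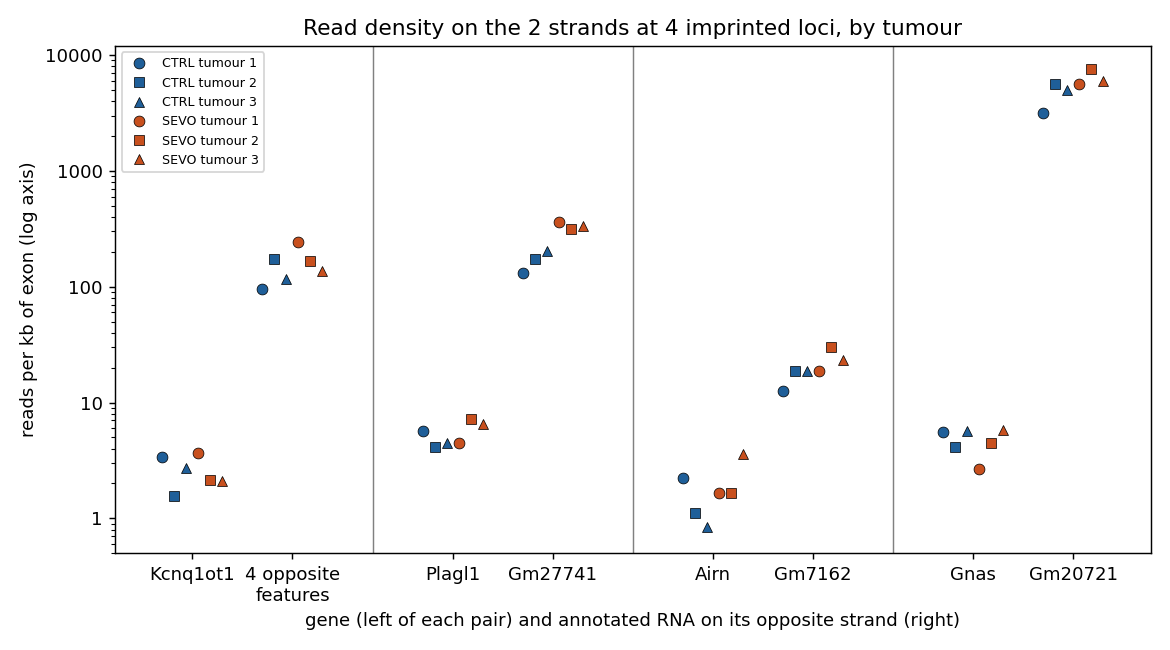
Reads per kb (log axis) at 4 imprinted loci in each of the 6 tumours, for the gene (left of each pair) and the annotated RNA on its opposite strand (right). In every tumour and at all 4 loci the opposite RNA is denser, from 5.71 times at Airn to 2101 times at Gnas.

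SEVO tumours were then compared with CTRL tumours by the quasi-likelihood test of edgeR, with p adjusted over all genes by Benjamini-Hochberg. RNA came from whole tumour pieces, in which fewer cells of a type and less RNA per cell cannot be told apart. The filter on low counts kept 4 of the 10 genes, and 0 of them had an adjusted p under 0.05, as for 0% of the 7561 genes tested (0 of 7561, of which 330 had an unadjusted p under 0.05; DESeq2 also gave 0). The study had called genes at a linear fold of at least 1.5 with an unadjusted p under 0.02, and here 0 of the 4 passed and 1.04% of all genes tested did. The other 6 were taken from a fit over all 42423 genes with a read, where 0% had an adjusted p under 0.05 and 0.627% passed the study thresholds, and 0 of the 6 did either.

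Kcnq1ot1 stood at 284 ± 98.6 CPM (SD, n = 3) in CTRL and 273 ± 106 in SEVO tumours, where CPM are reads scaled to a common library size by TMM. The log2 fold change was -0.05 (SE 0.40) with an adjusted p of 0.957 in edgeR, and its sign turned in 4 of 8 alternative settings. Plagl1 stood at 44.6 ± 7.66 CPM in CTRL and 52.0 ± 10.4 in SEVO tumours, a log2 fold change of 0.22 (SE 0.33, adjusted p = 0.817 in edgeR). It kept a positive sign in all 8 alternative settings and with any 1 tumour left out, without passing a threshold in these.

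Meg3 was at 39.8 ± 35.1 CPM in CTRL and 14.0 ± 5.04 in SEVO tumours, a log2 fold change of -1.50 (SE 0.70, unadjusted p = 0.0511, adjusted p = 0.741 in edgeR). The 3 SEVO values lay inside the range of the CTRL tumours. Without CTRL tumour 2, the tumour with the fewest stray reads, 428 of 8961 genes passed the study thresholds upwards and 1021 downwards. Meg3 was among the latter at -1.86, with an unadjusted p of 0.00042 and an adjusted p of 0.0574 in edgeR. Without CTRL tumour 1, the tumour with the most stray reads, it was -0.66 with an unadjusted p of 0.318 in edgeR. In the fit over all genes with a read it was -0.78 with an unadjusted p of 0.164 in edgeR. With the log2 receptor density as a covariate, an alternative added after the data had been seen, it was -0.33 (SE 0.47).

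Rian had a log2 fold change of -0.66 (SE 0.74, adjusted p = 0.788 in edgeR), which became 0.26 with the receptor density as a covariate. In the fit over all genes Mirg was at -1.45 (SE 0.87) and Peg3 at -1.32 (SE 0.80), both with an adjusted p of 0.793 in edgeR. Without CTRL tumour 2, 1166 of 42280 genes passed the study thresholds upwards in SEVO tumours and 1454 downwards. Mirg and Peg3 were among the latter, at -1.73 and -1.64. Without CTRL tumour 1 they were at -1.08 (unadjusted p = 0.277 in edgeR) and -0.65 (unadjusted p = 0.502 in edgeR), Mirg was at -0.94 without SEVO tumour 1, and with the covariate they stood at -0.96 and -0.69. The part of the stray reads in these values was otherwise not tested.

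The other 4 genes had wide errors. In the same fit the log2 fold change was 1.13 (SE 0.79) for Airn, -0.07 (SE 1.13) for Nespas, 0.79 (SE 1.26) for H19 and 1.25 (SE 1.58) for Igf2, with adjusted p from 0.793 to 0.984 in edgeR. These estimates rest on at most 13 reads per tumour.

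For all 10 genes the CPM of the groups overlapped, whereas the groups did not overlap for 8.56% of the 7561 filtered genes and for 5.59% of all genes with a read. Exact two-sided permutation tests of log2 CPM gave p between 0.2 and 1.0, where 0.1 is the smallest that 3 against 3 allow.

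**Figure D5:**
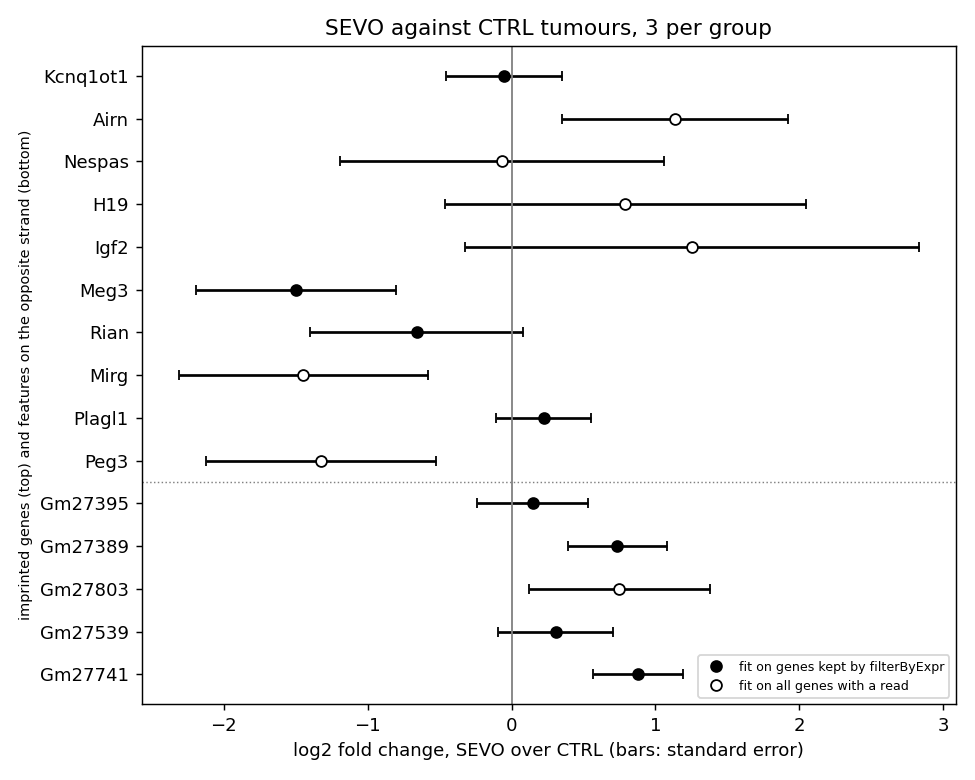
Log2 fold change of SEVO over CTRL tumours with its standard error for the 10 imprinted genes and for 5 features on the strand opposite Kcnq1ot1 and Plagl1. Filled points come from the fit over filtered genes and open points from the fit over all genes with a read. The bars of Kcnq1ot1, Nespas, H19, Igf2, Rian and Plagl1 cross 0. Bars of 1 standard error that miss 0 do not mark a difference, and the lowest unadjusted p of the 10 genes was 0.0511 in edgeR, for Meg3.

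Among the opposite features, the groups did not overlap for Gm27741 and Gm27389, beside 8.56% of the filtered genes. Gm27741 had 48.0 ± 9.20 CPM in CTRL and 88.5 ± 8.71 in SEVO tumours, a log2 fold change of 0.88 (SE 0.32) that passed the study thresholds (unadjusted p = 0.0156) but had an adjusted p of 0.741 in edgeR. It no longer passed them in 4 of 8 alternative settings and in 5 of the 6 fits without 1 tumour, where the log2 fold change was 0.73 to 1.06. Gm27389 had 37.3 ± 6.02 CPM in CTRL and 62.2 ± 17.8 in SEVO tumours, a log2 fold change of 0.74 (SE 0.35, unadjusted p = 0.053, adjusted p = 0.741 in edgeR). Gm27395, Gm27539 and Gm27803 overlapped between the groups, with log2 fold changes of 0.56, 0.73 and 0.75 in the fit over all genes with a read. The first and second were at 0.15 and 0.31 in the filtered fit, where Gm27803 was not tested. The exact permutation p was 0.1 for Gm27741 and Gm27389, the smallest possible.

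Kcnq1, Igf2r and Gnas, which Kcnq1ot1, Airn and Nespas run against, lay above the background in every tumour by the main rule. In CTRL tumour 3, Kcnq1 and Gnas, at 6.35 and 5.63 reads per kb, lay below the 95th percentile of the second silent list, 7.55. Kcnq1 had a log2 fold change of 0.10, Igf2r, which carries Igf2 and lysosomal enzymes to lysosomes, 0.11, and Gnas -0.37, all without passing a threshold. Cd81 and Tspan32, tetraspanin genes of the Kcnq1 cluster, were at -0.29 and 0.08. Cdkn1c, the cell cycle inhibitor silenced by Kcnq1ot1 in cis, had 3, 0 and 1 reads in CTRL and 0, 0 and 1 in SEVO tumours, and Phlda2, a growth restrainer of the placenta, had 0 or 1 in every tumour. Dlk1, the paternally expressed ligand-like gene beside Meg3, had 16, 3 and 10 reads in CTRL and 0, 2 and 2 in SEVO tumours, so that the groups did not overlap (log2 fold change -2.26, SE 1.00, unadjusted p = 0.024, adjusted p = 0.793 in edgeR). Cdkn1c, Phlda2 and Dlk1 were not above the background in every tumour. The highest density of Dlk1, 2.83 reads per kb in CTRL tumour 1, lay below the 95th percentile of the receptor genes there, 3.57. Rtl1, the retrotransposon-derived gene between Meg3 and Rian, had 27, 23 and 18 reads in CTRL against 25, 15 and 32 in SEVO tumours.

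Of 34 neighbours of the 10 genes that were matched, 10 were tested in the filtered fit, 0 passed the study thresholds, and 3 estimates were higher and 7 lower in SEVO tumours. Their median log2 fold change was -0.33, beside -0.02 for all genes tested. Of 64 other imprinted genes, 20 were tested, 0 passed, 9 estimates were higher and 11 lower, with a median of -0.12, and 16 were above background in every tumour. In the fit over all genes with a read the median was -0.40 for the neighbours and -0.31 for the other imprinted genes, beside -0.38 for all genes. Among the 71 genes of both lists with a read, the groups did not overlap for 4, Dlk1, Begain, Magel2 and Peg13, all lower in SEVO tumours, which is near the 5.59% of all genes.

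The densest of the other imprinted genes were Nnat, Copg2, Snhg14, Mest and Zrsr1. Nnat, a membrane proteolipid gene, had 32.3 to 75.5 reads per kb, and Snhg14, the long host RNA that runs against Ube3a, 16.2 to 38.7. Copg2, a coatomer subunit gene, had 22.1 to 79.5 and Mest, with which it overlaps tail to tail over 912 exon bases, 13.7 to 50.4. Zrsr1, a splicing factor copy inside Commd1, had 19.1 to 44.1. Exons of Snhg14 lie opposite those of Ube3a over 1803 bases. The strand setting is not given, and which strand of RNA the counts of these overlapping genes stand for was not tested. Ube3a, a ubiquitin ligase gene, was below Snhg14 in every tumour at 0.436 to 3.25 reads per kb and had the lowest p among the 20 genes of the filtered fit (67, 18 and 38 reads in CTRL, 10, 9 and 37 in SEVO tumours, log2 fold change -1.26, SE 0.59, unadjusted p = 0.0517, adjusted p = 0.741 in edgeR). The next lowest p in that fit belonged to Sgce (-1.24) and H13 (-0.73).

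Genes that read or write imprints (DNA methyltransferases, Trim28, Ctcf, Polycomb subunits and others) gave 9 tested of 14, with 0 past the study thresholds, all 9 estimates lower in SEVO tumours and a median log2 fold change of -0.39, beside -0.02 for all genes tested. In the fit over all genes with a read the median of the 14 was -0.02, beside -0.38 for all genes. Of 15 genes of the IGF2 pathway, 7 were tested, 2 estimates were higher and 5 lower with a median of -0.67, and 0 passed. The lowest was Igf1r, the receptor that transmits the IGF2 signal, with 56, 6 and 24 reads in CTRL and 7, 1 and 14 in SEVO tumours (log2 fold change -2.06, SE 0.81, unadjusted p = 0.0249, adjusted p = 0.741 in edgeR). Igf1r was named after its values were seen. In the fit over all genes with a read the median of the 15 pathway genes was -0.62, beside -0.38 for all genes.

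Markers of cell types were measured in the same fit. The 10 melanocyte markers summed to 1522 to 1590 CPM in CTRL and 693 to 1978 CPM in SEVO tumours, with a median log2 fold change of -0.43 in the filtered fit and of -0.02 in the fit over all genes with a read, where the median of all genes was -0.38. Of the markers of other cells, 0 passed the study thresholds: 2 of 10 fibroblast markers were tested (median -1.18, summed level 53.9 to 272 CPM in CTRL and 33.3 to 105 in SEVO tumours), 3 of 10 endothelial (-1.45, 65.2 to 259 and 65.4 to 108), 2 of 10 macrophage (0.25, 204 to 290 and 227 to 322), 1 of 10 T and NK cell (-0.14, 7.53 to 93.5 and 27.6 to 41.4) and 2 of 6 erythroid markers (0.06, 149 to 262 and 194 to 220). None of the keratinocyte, muscle and adipocyte markers was tested in the filtered fit. Their summed levels reached 75.3, 69.2 and 89.8 CPM in CTRL and 18.5, 31.6 and 24.0 in SEVO tumours. Over all genes with a read the medians were -0.73 for fibroblast, -0.40 for endothelial and -0.41 for macrophage markers. For T and NK cell and erythroid markers they were -0.39 and 0.49. For keratinocyte, muscle and adipocyte markers they were -0.50, -0.35 and -1.04, beside -0.38 for all genes. None of these markers was at 0 in all tumours, and their part in the values of Meg3, Peg3 and the other imprinted genes was not tested.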

How the data were processed

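RNA of 6 tumours had been sequenced. According to the methods of the study, ribosomal reads were removed with SortMeRNA, reads trimmed with Trimmomatic 0.36, aligned to GRCm38.p6 with STAR 2.6.0c and counted on the GENCODE annotation with HTSeq 0.9.1, versions as in the submitters' processing notes. The authors deposited raw read counts per gene, without normalization. Of 53801 identifiers, 53706 matched GENCODE M21 on GRCm38 without their version (9 of the 10 imprinted genes with the same version), which gave symbols, merged exons, strands and transcript sequences. The strand setting and library kit are not given in the sources used here. Tallies of uncounted reads were kept out of library sizes and tests.

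Counts were fitted with edgeR 4.0.16 in R 4.3.3 (TMM, filterByExpr, glmQLFit, glmQLFTest), with a second fit over all genes with a read, and DESeq2 1.42.0 as an alternative. The common dispersion was 0.158. The fits were tested on simulated counts. Permutation tests used SciPy 1.17.1 on log2 CPM with 0.5 reads added. Intervals of densities are exact 95% Poisson intervals and cover counting error only. The labels do not say that the replicates came from separate cultures, so p-values measure the spread between these 6 tumours. No source pairs same-numbered tumours. The 10 genes, the lists and the tests were chosen with earlier results of these data known. Genes named were the 10, their neighbours, features on the opposite strand, the 5 densest other imprinted genes, the 3 with the lowest p and the 3 most like Kcnq1ot1 in log2 CPM. The sequence of 1 feature is not reported here.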

Additional observations from a re-analysis of the deposited data

How the results depend on the processing

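The 10 imprinted genes gave 0 calls at the study thresholds under every setting with all 6 tumours, and 0 to 1 of the filtered and 0 to 2 of the other genes when 1 tumour was left out. The calls, Meg3 (-1.86), Mirg (-1.73) and Peg3 (-1.64), came without CTRL tumour 2 only. Calls were frequent there over all genes, with 428 of 8961 filtered genes called upwards and 1021 downwards. Over the 42280 genes with a read, 1166 were called upwards and 1454 downwards without that tumour. Without SEVO tumour 3, 25 of 8383 filtered genes were called upwards and 454 downwards. In the filtered fit other imprinted genes gave 0 to 3 calls when 1 tumour was left out (Grb10, Sgce and Ube3a without CTRL tumour 2, and 2 of them, Sgce and Ube3a, without SEVO tumour 3), and 1, Ube3a, with the replicate block. In the fit over all genes with a read, 4 (Dlk1, Klf14, Mest and Slc22a3) were called without CTRL tumour 2, 1 (Dlk1) with RLE size factors and 1 (Sfmbt2) with the covariate added later. Of all 7561 filtered genes, 6 were called upwards and 123 downwards with the block. Of all 42423 genes with a read, 47 and 268 were so called with RLE size factors, and 675 and 111 with the covariate. Deviations of same-numbered tumours correlated at -0.38, 0.32 and 0.12, beside a mean of -0.02 for the other pairs. So few pairs of differing sign cannot decide whether the tumour numbers pair the samples. The block changed no other call of these results except that of Gm27741 (0.89, unadjusted p = 0.0358 in edgeR). Genes above background in every tumour numbered 0 with a second list of 98 silent genes, 2 by the Poisson bound added later and 1 to 2 with a tumour left out (2 without CTRL tumour 1, 1 otherwise).

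The log2 fold change of Kcnq1ot1 turned positive at 0.26 with library size only, 0.14 with the receptor density as covariate, 0.38 in DESeq2 and 0.56 without a filter, and took values of -0.33 to 0.22 in the fits without 1 tumour. The median of all genes, -0.02 in the filtered fit, was 0.22 with library size only and -0.38 over the larger set of genes without a filter. Without 1 tumour Nespas took values of -4.70 to 0.52 and Rian of -0.96 to 0.36. Rian was 0.057 without a filter and 0.26 with the covariate. The cause was not tested. By the main rule 9 of the 10 genes were not above the stray reads in every tumour, and the part of depth and of the strand setting in this was not tested.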
